A study of Mus musculus with 6 samples.

Results

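The genes described here are the interferon response and MHC class I genes of mouse pancreatic islets, 34 rows chosen by symbol from the 40840 rows of a table of read counts. The choice rests on function, but it was made with earlier results of these data known. It takes 4 transcriptional regulators, 3 RNA sensors, 15 antiviral effectors and modifiers, 3 guanylate-binding proteins, 3 genes of the MHC class I molecule and 6 genes that supply it with peptides. All 34 were in the table and all 34 passed the filter on low counts, among 16240 genes that did. Islets are the hormone-secreting cell clusters of the pancreas. Bulk RNA was sequenced from 3 wild-type (WT) and 3 knockout (KO) islet samples, all on a C57BL/6J background, in a study of IGF2R in beta cells. The labels do not give the way the gene was removed, the cells it was removed from, or the age and sex of the mice, and no label ties a library to an animal. The p-values therefore set the difference between KO and WT against the variation of these 6 libraries within their groups. Part of that variation may be technical.

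Interferons are signalling proteins that cells release on infection. Type I interferons act through receptors and Janus kinases to form a complex of STAT proteins with IRF9, which binds the interferon-stimulated response element in the promoters of antiviral genes. Interferon gamma acts mainly through STAT dimers that bind gamma-activated sites, and through IRF1. MHC class I molecules, made of a heavy chain and beta-2 microglobulin, show peptides from inside the cell to CD8 T cells. In islets this pathway is known for its part in type 1 diabetes, where beta cells carry raised MHC class I.

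The libraries held 16689319 to 18956235 counts each. Igf2r, the targeted gene, had 1790, 2145 and 2097 counts in WT against 928, 841 and 823 in KO, and it fell by 1.21 on the log2 scale (SE 0.0946, edgeR adjusted p 0.00261). Over all settings its log2 fold change lay between -1.32 and -1.11, but the edgeR adjusted p was 0.130 without KO library 1, 0.192 without KO library 2 and 0.284 with the acinar marker level as a covariate, where it was not called. Islet endocrine markers such as the insulin genes summed to between 185514 and 226652 CPM (library-scaled counts, by TMM). Acinar digestive enzyme markers made up 1.75% of WT library 1, 1.85% of WT library 2 and 0.0968% to 0.302% of the other 4 libraries. Their mean log2 CPM was 8.65, 8.79 and 6.21 in WT libraries 1 to 3 and 4.73, 6.12 and 4.57 in KO libraries 1 to 3. Every WT library thus lay above every KO library. A fit with this level as a covariate therefore cannot cleanly separate genotype from acinar level. WT library 1 also held 47 counts of the B cell gene Ms4a1, where the other libraries held 0 to 2.

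The promoters that carry the binding sites of this pathway are shown first, because they group the genes by known response elements. They were taken from RefSeq (GRCm38), which listed 32 promoters for 27 of the 34 genes, each from 250 bases before to 50 bases after a start. The core of the interferon-stimulated response element, read as GAAA, any 2 bases and GAAA again, was found on either strand in 13 of those 32 promoters, or 40.6%, and in 3.44% of all 32851 promoters. The letters TTCNNNGAA, a gamma-activated site, were found in 7 of the 32, or 21.9%, and in 8.30% of all. A match shows only that the letters are present in the window. The stretches below lie upstream of the RefSeq start, read 5′ to 3′ on the strand of the gene. In the first pair, capitals mark GGGGATTCCCC, the kappa B site of the MHC class I enhancer, and TTTCACTTC, its interferon response sequence. In the other stretches they mark the response element core on either strand, with overlapping matches joined.
H2-K1: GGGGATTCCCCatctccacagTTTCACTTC
H2-D1: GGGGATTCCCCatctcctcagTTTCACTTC
B2m: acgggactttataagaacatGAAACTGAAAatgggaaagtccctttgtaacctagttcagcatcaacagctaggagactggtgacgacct
Isg15: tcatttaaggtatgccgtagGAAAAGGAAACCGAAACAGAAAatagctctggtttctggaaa
Ifit1: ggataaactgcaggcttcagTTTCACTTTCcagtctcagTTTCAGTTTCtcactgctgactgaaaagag
Rsad2: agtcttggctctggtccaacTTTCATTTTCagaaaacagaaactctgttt
Gbp2: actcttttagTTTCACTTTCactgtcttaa

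The stretch of H2-K1 is chr17:34000429-34000458 on the minus strand and that of H2-D1 is chr17:35262923-35262952 on the plus strand. The pair was identical at 29 of 30 bases. GENCODE M21 starts H2-D1 and Gbp2 further upstream, so that in its models the H2-D1 stretch and the marked letters of Gbp2 lie inside the gene. Searched on both strands, TTTCACTTC was in 0.505% of all promoters and GGGGATTCCCC in 0.0304%, and among the 34 genes each was found in H2-K1 and H2-D1. Both sets of letters were picked for printing after these promoters had been read. The B2m stretch is chr2:122147528-122147617 (plus strand), the Isg15 stretch chr4:156200855-156200916 (minus) and the Ifit1 stretch chr19:34640765-34640833 (plus). The Rsad2 stretch is chr12:26456543-26456592 (minus) and the Gbp2 stretch chr3:142620594-142620623 (plus).

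The level of these genes in islets spanned a wide range, led by the MHC class I molecule. On a scale of CPM per kilobase of annotated exon, averaged over the 6 libraries, B2m stood at 174, H2-K1 at 130.3 and H2-D1 at 118. Tapbp, which encodes tapasin, the chaperone that loads peptides onto the heavy chain, was next at 50.7. Irf1, a transcription factor induced by interferon gamma, followed at 14.7, close to Tap2, a chain of the peptide transporter, at 14.3. The antiviral effectors were spread over the order, from Ifi35 at 12.5, Ifi27 at 10.9 and Rsad2 at 6.92 to the lowest members, Mx2 at 1.06, Isg15 at 0.953, Oas1a at 0.777 and Mx1 at 0.322 CPM per kilobase. Isg15, a ubiquitin-like modifier that is among the most strongly induced genes of the response, had 9 to 17 counts per library. The Mx1 and Mx2 GTPases are defective in most laboratory mouse strains, C57BL/6J included. Neighbouring genes in this order, such as Irf1 and Tap2, were often closer than the SD between libraries.

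**Figure D1:**
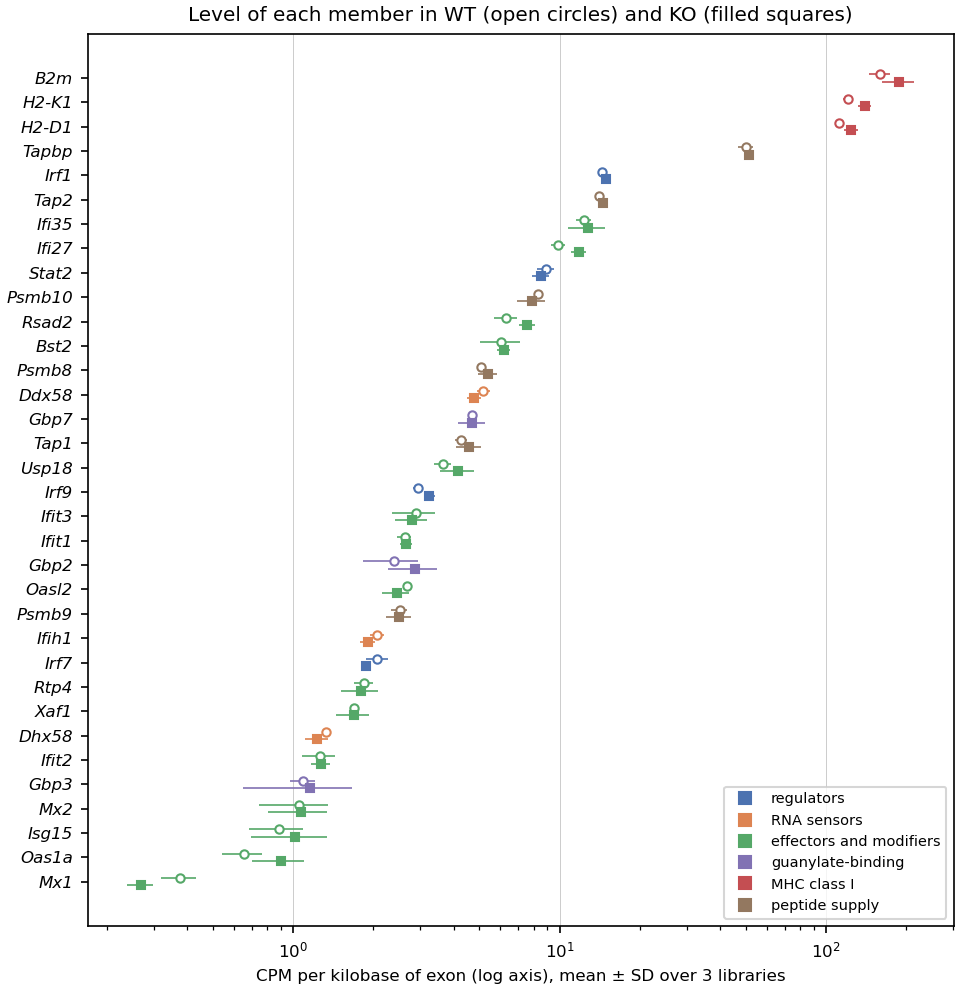
Level of the 34 genes in CPM per kilobase of annotated exon (log axis), as mean ± SD over 3 WT libraries (open circles) and 3 KO libraries (filled squares), coloured by role. B2m, H2-K1, H2-D1 and Tapbp lie above all other members, and Mx1 is lowest at 0.322 over the 6 libraries.

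Interferon transcripts themselves were at the limit of detection. Of 12 interferon genes, 9 had 0 counts in all 6 libraries, among them Ifnb1, the beta interferon of type I responses. A count of 0 allows up to 3 counts, or 0.159 to 0.179 CPM per library, and covers counting error only. Ifng, which encodes interferon gamma, had 1 count in WT library 1 and 1 in KO library 1. Ifne and Ifnk had 1 count each in a single library.

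KO was compared with WT to ask whether any of these genes differed. By edgeR's quasi-likelihood test over all 16240 genes, 0 of the 34 genes passed an adjusted p of 0.05, where 0.0123% of all genes did. DESeq2 gave 8 of the 34 an adjusted p and called 1, H2-K1, and limma-voom called 0. At an unadjusted p under 0.05, 5 of the 34 genes were higher in KO and 0 were lower, beside 5.19% and 5.80% of all genes. The 5 were H2-K1, H2-D1, B2m, Rsad2 and Ifi27. The count at an unadjusted p under 0.05 was 0 with the acinar level as a covariate, 0 against WT library 3 alone and 3 without WT library 1. The KO and WT libraries did not overlap for 7 of the 34 genes, beside 15.7% of all genes. In 6 of these KO was higher (8.02% of all genes), and in 1, Mx1, it was lower (7.69%). The log2 fold change was above 0 for 21 of the 34 genes (50.01% of all genes), with a median of 0.04 and a range of -0.48 to 0.46, beside a median of 5.3e-05 over all genes.

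**Figure D2:**
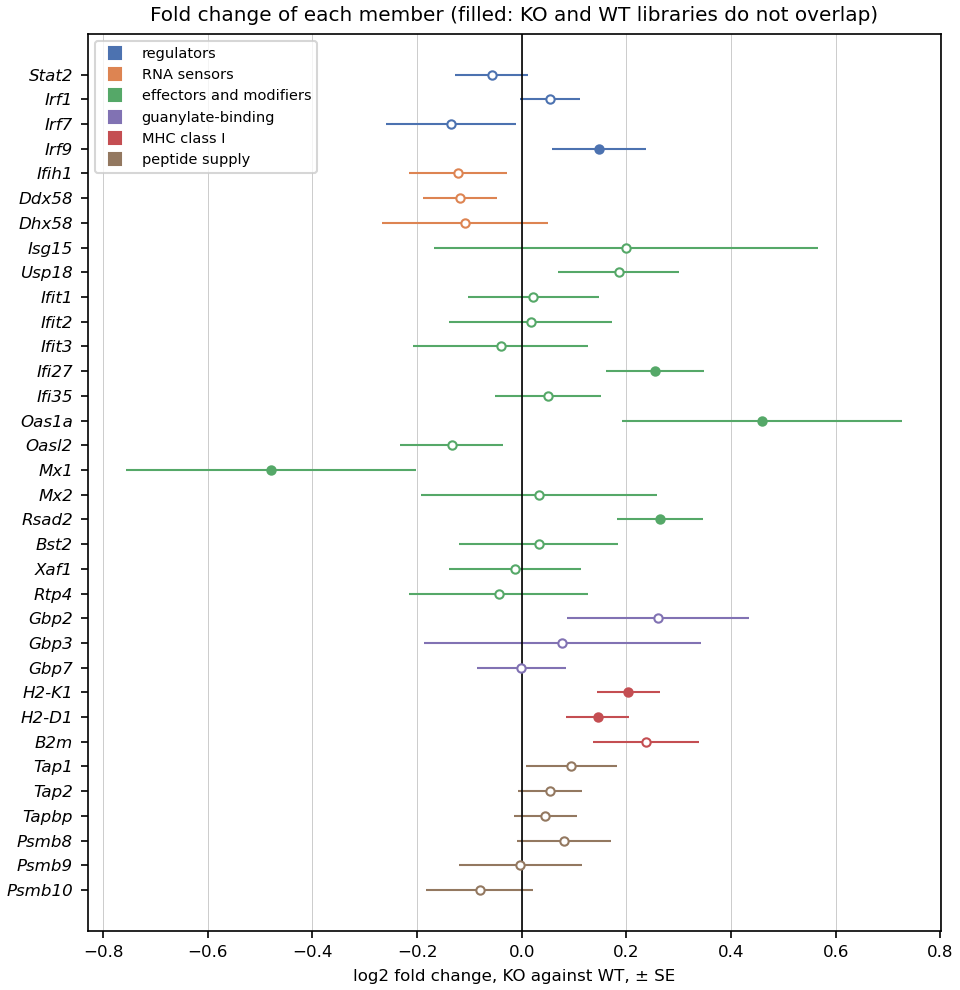
Log2 fold change of KO against WT with its SE from edgeR for each of the 34 genes, grouped and coloured by role, with filled points where the 3 KO and 3 WT libraries do not overlap. The 3 MHC class I genes lie between 0.14 and 0.24, the 3 RNA sensors between -0.12 and -0.11, and 0 of the 34 passed the adjusted threshold.

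All 3 genes of the MHC class I molecule had higher means in KO, by amounts that did not pass the adjusted test. Their summed level was 766 to 810 CPM in WT and 841 to 960 CPM in KO, and the sums did not overlap. H2-K1, a classical heavy chain of the b haplotype of this strain, stood at 344, 352 and 372 CPM in WT libraries 1 to 3 and at 386, 413 and 430.0 CPM in the KO libraries. All 3 KO values lay above all 3 WT values. The mean was 356 ± 14.7 CPM over the WT libraries and 410 ± 22.3 CPM over the KO libraries (SD, n = 3). The difference was 0.20 on the log2 scale (SE 0.0599, edgeR adjusted p 0.274). DESeq2 gave H2-K1 an adjusted p of 0.0375, and it called 1.02% of the 6076 genes to which it gave an adjusted p. The gene spans chr17:33996017-34000347 on the minus strand.

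H2-D1, the other classical heavy chain, stood at 279, 291 and 298 CPM in WT and at 309.8, 307 and 343 CPM in KO. Its groups also did not overlap, with KO library 3 highest and KO libraries 1 and 2 only just above the highest WT library. The means were 289 ± 9.70 CPM and 319.8 ± 19.8 CPM (SD, n = 3), which differed by 0.14 on the log2 scale (SE 0.0605, edgeR adjusted p 0.406). H2-D1 spans chr17:35262730-35267499 on the plus strand. The 2 heavy chains share sequence with each other and with the H2-Q genes: 9.63% of the 50-base words of H2-K1 transcripts and 12.8% of those of H2-D1 occur in other genes. How reads matching several genes were counted is not given here, so the split between these genes is uncertain.

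B2m, which encodes beta-2 microglobulin, the light chain that every class I heavy chain needs, stood at 148, 124 and 139.6 CPM in WT. In KO it stood at 146, 152 and 188 CPM. The groups overlapped, since KO library 1 lay below WT library 1, and KO library 3 stood well above the rest. The log2 fold change was 0.24 (SE 0.101, edgeR adjusted p 0.444). Without a filter on low counts edgeR called B2m (adjusted p 0.0158), with 1.02% of 26754 genes called. Leaving out KO library 3 moved the log2 fold changes of B2m to 0.12, of H2-D1 to 0.09 and of H2-K1 to 0.17. Against WT library 3 alone, which leaves out the acinar-rich WT libraries and assumes that this library varies like the KO libraries, they were 0.21, 0.10 and 0.14. With the acinar level as a covariate, which runs with genotype in these libraries, they were 0.12, 0.05 and 0.13.

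Some markers of antigen-presenting cells, which carry both MHC classes, also had higher means in KO. The summed level of 14 macrophage and MHC class II markers was 520.3 to 599 CPM in WT and 619 to 653 CPM in KO libraries. Of the 14, 6 were higher at an unadjusted p under 0.05 (5.19% of all genes), 0 were lower and 0 passed the adjusted threshold. Those 6 were the class II genes Cd74, H2-Aa, H2-Ab1 and H2-Eb1 and the complement genes C1qa and C1qb. Cd74, the class II invariant chain, stood at 223, 211 and 239 CPM in WT and 249, 264 and 271 CPM in KO, and C1qb, a complement subunit of tissue macrophages, at 16.8, 15.7 and 18.7 CPM in WT and 19.8, 21.2 and 23.5 CPM in KO. Both were above WT in all 3 KO libraries. Outside those 6, Adgre1 (log2 fold change 0.16) was also above WT in all 3 KO libraries, and Csf1r (0.13) overlapped between groups. The rest of the 14 had overlapping groups and log2 fold changes near or below 0. They were Ptprc (0.03), Cd68 (0.02), C1qc (-0.03), Aif1 (-0.12), Itgam (-0.12) and Lyz2 (-0.12). All 10 endothelial markers had log2 fold changes above 0, with sums of 1178 to 1283 CPM in WT and 1257 to 1349 CPM in KO. Of 13 lymphocyte markers, 2 passed the filter, Cd79a and Siglech, and the sums were 37.6 to 46.0 CPM in WT and 31.7 to 36.6 CPM in KO. The T cell genes Cd3e and Cd8a were at or below 1.01 CPM in every library. The part of these cells in the MHC class I values was not tested. In bulk RNA, more cells of a type and more RNA per cell cannot be told apart.

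**Figure D3:**
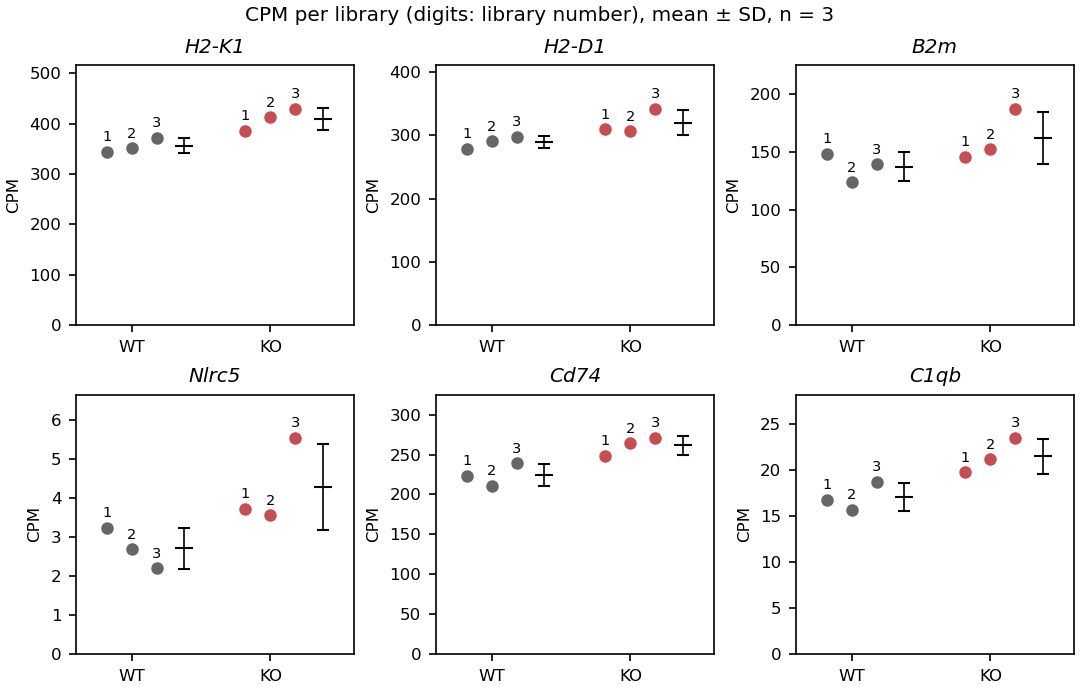
CPM in each library, numbered 1 to 3 within WT (grey) and KO (red), with the mean ± SD of 3 libraries beside the points and axes that start at 0. H2-K1 is 344 to 372 in WT and 386 to 430.0 in KO. The class I transactivator gene Nlrc5, the invariant chain gene Cd74 and the complement gene C1qb are also higher in all 3 KO libraries, while B2m overlaps between groups. Cd74 and C1qb were picked after their values were seen, from 14 macrophage and class II markers. Of those 14, 5 lay wholly above WT (8.02% of all genes) and 9 overlapped.

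The genes that supply peptides to MHC class I were close to equal in the groups, and the KO and WT libraries overlapped for all 6. Tapbp stood at 175, 174 and 195 CPM in WT and at 185, 182 and 193 CPM in KO. Tap1 and Tap2, the chains of the transporter that brings peptides into the endoplasmic reticulum, had log2 fold changes of 0.09 (SE 0.0867) and 0.05 (SE 0.0608). The immunoproteasome subunits Psmb8, Psmb9 and Psmb10, which replace the catalytic subunits of the standard proteasome under interferon, had 0.08, -0.0027 and -0.08. Their edgeR adjusted p ranged from 0.718 to 0.994 over the 6 genes. Psmb8 stood between 17.16 and 17.25 CPM in WT and at 17.6, 17.1 and 19.95 CPM in KO, with KO library 3 apart.

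The replacement itself can be followed as a ratio of immunoproteasome to standard catalytic subunits, Psmb8, Psmb9 and Psmb10 over Psmb5, Psmb6 and Psmb7. In WT libraries 1 to 3 it was 0.370, 0.335 and 0.343. In KO libraries 1 to 3 it was 0.352, 0.317 and 0.371. The groups overlapped fully, with means of 0.349 ± 0.0185 and 0.347 ± 0.0273 (SD, n = 3). Of the 50-base words of Psmb5, 54.1% also occur in pseudogenes and other genes, so its count is uncertain. The ratio of H2-K1 to H2-D1 counts was 1.23, 1.21 and 1.25 in WT and 1.25, 1.35 and 1.25 in KO, with KO library 2 highest.

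Psmb9, Tap1, Psmb8 and Tap2 lie next to each other on chromosome 17, between bases 34181987 and 34216321 of GRCm38, inside the MHC. Psmb9 and Tap1 are read in opposite directions and their annotated exons share 212 bases. The kit kept the strand, but the strand setting of the counting step is not given in the sources used here, so reads in those bases may have been counted for either gene or for neither. The same holds for 904 bases that Tapbp shares with the antisense gene Gm19412.

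The regulators of the response were also near WT levels. Irf9, the DNA-binding part of the type I interferon complex, stood at 15.3, 16.5 and 15.6 CPM in WT and at 18.1, 16.5 and 17.9 CPM in KO. The groups did not overlap, but KO library 2 and WT library 2 were nearly equal, at 289 and 277 counts. The log2 fold change was 0.15 (SE 0.0898, edgeR adjusted p 0.559). Stat2, the partner of IRF9, was at -0.06, Irf1 at 0.05 and Irf7, the factor that amplifies type I interferon production, at -0.14 log2, each with overlapping groups. Irf9 shares 123 exonic bases with Rnf31 on the same strand.

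The 3 cytoplasmic RNA sensors all had lower means in KO, by small amounts that did not pass the test. Ddx58, which encodes RIG-I, stood at 37.1, 38.1 and 34.2 CPM in WT and at 33.1, 31.8 and 35.8 CPM in KO. Ifih1, which encodes MDA5, stood at 17.9, 15.8 and 17.1 CPM in WT and at 15.8, 14.5 and 16.4 CPM in KO. The groups overlapped for both, and the log2 fold changes were -0.12 (SE 0.0707) for Ddx58 and -0.12 (SE 0.0935) for Ifih1. Dhx58, which encodes the regulator LGP2, was at -0.11 (SE 0.158). Their edgeR adjusted p ranged from 0.558 to 0.836.

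Among the 15 effectors and modifiers, 10 had log2 fold changes above 0 and 5 below, with a median of 0.03. Rsad2, which encodes viperin, an enzyme that makes a chain-terminating nucleotide, stood at 24.1, 29.2 and 28.4 CPM in WT. In KO it stood at 30.2, 33.8 and 34.2 CPM. All KO values were higher, with KO library 1 close above WT library 2. The log2 fold change was 0.26 (SE 0.0817, edgeR adjusted p 0.281), and the lowest adjusted p over all settings was 0.0606. The gene spans chr12:26442746-26456452 on the minus strand.

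Ifi27, an interferon-induced membrane protein gene, stood at 13.5, 15.1 and 14.9 CPM in WT and at 16.6, 18.5 and 16.8 CPM in KO. The groups did not overlap, and the log2 fold change was 0.25 (SE 0.0939, edgeR adjusted p 0.351). Oas1a, a synthetase that activates RNase L, had 19, 24 and 23 counts in WT. In KO it had 29, 25 and 36 counts, which gave 0.46 on the log2 scale (SE 0.267). Of its 50-base words, 57.6% also occur in Oas1g and other copies. Mx1 had 24, 28 and 24 counts in WT. In KO it had 18, 20 and 16 counts, which gave -0.48 on the log2 scale (SE 0.277). The values of Oas1a and Mx1 thus rest on 16 to 36 counts per library, and their edgeR adjusted p were 0.541 and 0.537.

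The other effectors overlapped between groups. Usp18, the protease that removes ISG15 and dampens type I interferon signalling, stood at 9.60 to 11.1 CPM in WT and at 10.2 to 13.5 CPM in KO (log2 fold change 0.18, SE 0.116). Isg15 itself was at 0.20 with an SE of 0.367, as its low counts allow. Ifit1, Ifit2 and Ifit3, neighbouring genes on chromosome 19 whose proteins bind viral RNA, were at 0.02, 0.02 and -0.04, with SE of 0.125 to 0.168. Of the 50-base words of Ifit3, 51.2% are shared with Ifit3b. Bst2, or tetherin, which holds budding virus at the membrane, was at 0.03, Mx2 at 0.03, Ifi35 at 0.05, Xaf1 at -0.01, Rtp4 at -0.04 and Oasl2, a relative of the Oas1 synthetases, at -0.13.

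The guanylate-binding proteins are GTPases that attack membranes around intracellular pathogens and respond chiefly to interferon gamma. They had the highest median biological coefficient of variation of the 6 roles, 0.132, but over only 3 genes. Gbp2 was at 0.132, Gbp3 at 0.201 and Gbp7 at 0.0716. The effectors Mx2, at 0.164, and Isg15, at 0.154, lay above Gbp2. Gbp3 stood at 3.34, 3.34 and 4.02 CPM in WT and at 3.56, 2.23 and 5.53 CPM in KO, so the KO libraries held both the lowest and the highest value. Gbp2 stood at 5.31, 5.12 and 7.65 CPM in WT and at 6.64, 6.12 and 8.95 CPM in KO. Gbp7 stood at 25.3 to 27.1 CPM in WT and at 23.99 to 29.8 CPM in KO. WT library 3 was the highest WT library and KO library 3 the highest KO library for all 3 genes. The log2 fold changes were 0.26, 0.08 and -0.00080 for Gbp2, Gbp3 and Gbp7, with SE of 0.0845 to 0.265. Gbp2 and Gbp3 turned below 0 against WT library 3 alone, to -0.08 and -0.10.

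Across the 34 genes, KO library 3 stood apart. It was the highest of the 6 libraries for 16 of the 34 genes, or 47.1%, beside 16.5% of all genes. Those 16 included H2-K1, H2-D1, B2m, Tap1, Tap2, Psmb8 and Psmb10 and all 3 guanylate-binding proteins. On average the 34 genes lay 0.14 log2 above their own means in KO library 3, and 0.04 and 0.03 below in KO libraries 2 and 1. WT library 1 was the lowest for 13 of the 34 genes, or 38.2%, beside 22.04% of all genes, and lay 0.09 below on average. The acinar share was 0.105%, 0.272% and 0.0968% in KO libraries 1 to 3, and the macrophage sum 619, 638 and 653 CPM. Whether either bears on the values of KO library 3 was not tested. Without KO library 3 the median log2 fold change of the 34 genes was -0.0070, with 17 above and 17 below 0. Without WT library 1 the median was 0.01. The median biological coefficient of variation was 0.0857 for the 34 genes and 0.0790 for all genes.

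**Figure D4:**
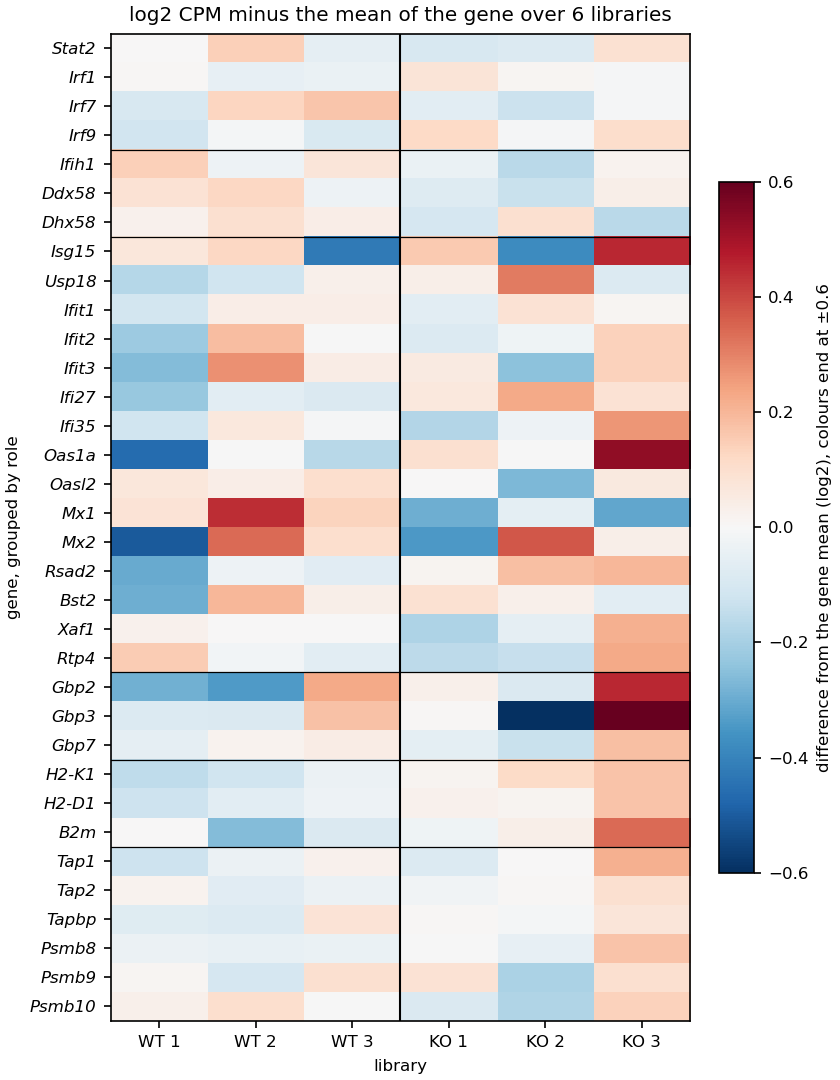
Log2 CPM of each gene minus its mean over the 6 libraries, in rows grouped by role and columns by library, red above and blue below the mean, with colours ending at 0.6. The KO library 3 column is red for MHC class I, peptide supply and guanylate-binding genes, and the WT library 1 column is mostly blue among the effectors.

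The rest of the pathway was read from 143 other genes, of which 115 passed the filter and 0 were called by edgeR. DESeq2 gave 48 of the 143 an adjusted p and called 1, Stat3, and limma-voom called 0. At an unadjusted p under 0.05, 6 of the 115 were higher and 7 were lower, beside 5.19% and 5.80% of all genes, and the median log2 fold change was 0.0092. Of 60 other interferon-stimulated genes tested, 29 were above and 31 below 0. KO lay wholly above WT for 4 of the 60 and wholly below for 4, or 6.67% each, beside 8.02% and 7.69% of all genes. Separation of the groups was thus no more common in this list than over all genes. The smallest p among them belonged to Igtp, an immunity-related GTPase, which stood at 9.18, 8.10 and 8.47 CPM in WT and 11.8, 9.62 and 12.9 CPM in KO. Its log2 fold change was 0.41 (SE 0.120, edgeR adjusted p 0.270). Irgm2, of the same family (0.34), and Gbp5 (0.53) were also above WT in all 3 KO libraries and highest in KO library 3, at 19.1 and 7.24 CPM. Without KO library 3 their log2 fold changes were 0.20 and 0.31, and with the acinar covariate 0.07 and 0.09. Rnf213, a large ubiquitin ligase, was at -0.15. Igtp and Irgm2 share 11.8% of the 50-base words of Igtp.

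Of 18 tested genes related to MHC class I, 12 were above and 6 below 0. KO lay wholly above WT for 1 of the 18 and wholly below for 2, beside 8.02% and 7.69% of all genes. Nlrc5, the transactivator that drives classical MHC class I genes, stood at 3.24, 2.68 and 2.20 CPM in WT and at 3.72, 3.55 and 5.53 CPM in KO. All 3 KO values were higher, and KO library 3 was apart from the other two. The log2 fold change was 0.65 (SE 0.205, edgeR adjusted p 0.295), and 0.42 without KO library 3. H2-T24, a class I-like gene, stood at 11.04, 10.3 and 9.24 CPM in WT and at 7.49, 8.53 and 7.30 CPM in KO. The groups did not overlap, and the difference was -0.39 on the log2 scale (SE 0.118, edgeR adjusted p 0.274). H2-Q4 was at 0.17 and Psme1, a proteasome activator subunit, at 0.14, both with overlapping groups.

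Of 19 receptor, kinase and factor genes tested, 10 were above and 9 below 0, and 4 were lower at an unadjusted p under 0.05, beside 5.80% of all genes. KO lay wholly below WT for 4 of the 19 and wholly above for 1, beside 7.69% and 8.02% of all genes. Stat3, which carries signals of interleukin 6 and other cytokines, stood at 160.2, 170.4 and 157 CPM in WT and at 145, 135 and 139 CPM in KO. The groups were well apart, at -0.22 on the log2 scale (SE 0.0566, edgeR adjusted p 0.234, DESeq2 adjusted p 0.0375). Jak1 and Jak2, the kinases at the receptors, were at -0.15 and -0.13 log2, and Irf8, a factor of macrophages and dendritic cells, at -0.41, each below WT in all 3 KO libraries. Of 15 other sensing genes tested, 7 were above and 8 below 0, with Eif2ak2, the RNA-activated kinase PKR, at -0.17 and the adaptor gene Myd88 at 0.11. Trim25 (-0.09) and Tbk1 (-0.11) overlapped between groups, as did the standard subunits Psmb5 (0.13), Psmb6 (-0.0034) and Psmb7 (0.01).

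**Figure D5:**
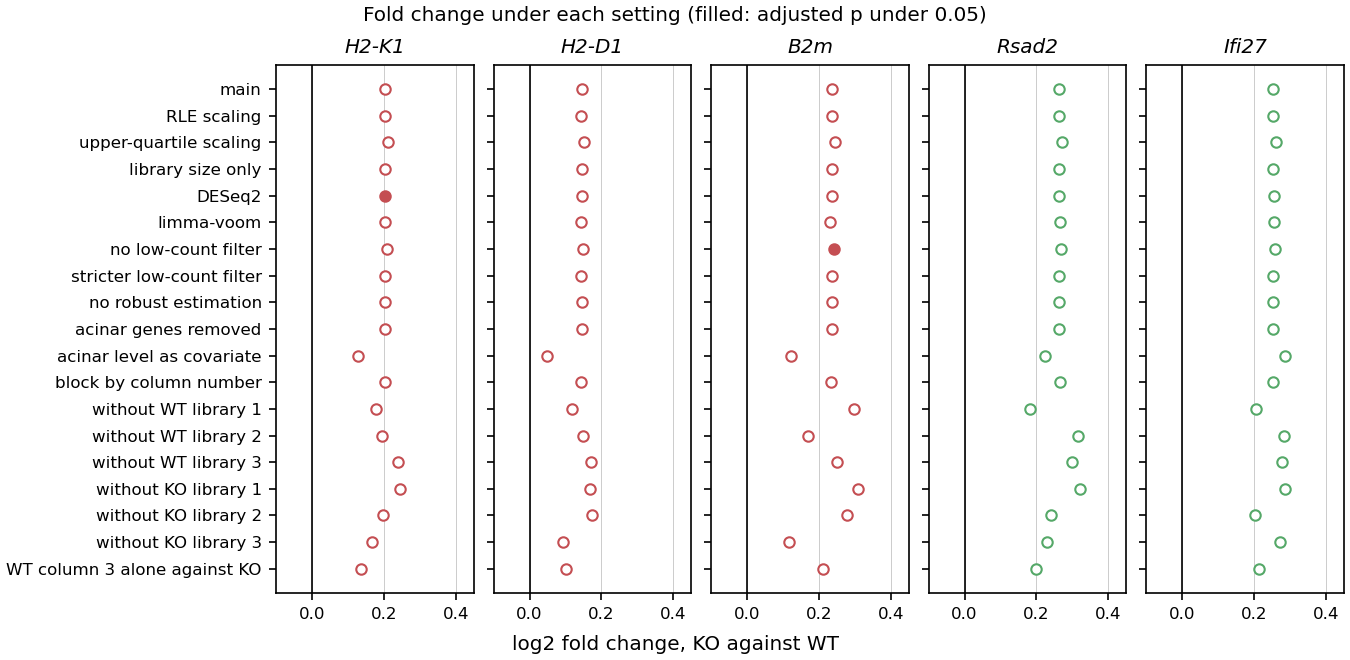
Log2 fold change of KO against WT for the 5 genes with an unadjusted p under 0.05, under 19 settings including the one reported, with filled points where the adjusted p was under 0.05. All points lie above 0, from 0.05 for H2-D1 with the acinar covariate to 0.32 for Rsad2, and only H2-K1 with DESeq2 and B2m without a low-count filter are filled.

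Over the 18 alternative settings, the log2 fold change of H2-K1 ranged from 0.13 to 0.25, H2-D1 from 0.05 to 0.17, B2m from 0.12 to 0.31, Rsad2 from 0.18 to 0.32 and Ifi27 from 0.20 to 0.29. These genes were picked by their values in the same libraries, so their sign across settings is no separate evidence. The fitted changes of H2-K1, H2-D1 and B2m were 15.1%, 10.6% and 17.8%.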

How the data were processed

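RNA from 6 islet samples was measured as gene-level read counts. The authors deposited raw counts, 1 column per library; Trimmomatic 0.39, STAR 2.7.10b, featureCounts 2.0.3 and build mm10 are named, without roles, per the submitters' processing notes. Not given in the sources used here are the annotation, the strand setting and the treatment of reads that match several genes. KO column numbers differ from KO title numbers, so each KO column stands for an unspecified library of that genotype and keeps its column number.

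Genes were kept by filterByExpr (minimum count 10, minimum total 15) in edgeR 4.0.16, scaled by TMM and tested with robust glmQLFit and glmQLFTest, two-sided, adjusted by Benjamini-Hochberg over 16240 genes. The SE is the log2 fold change divided by the square root of F. log2 CPM used a prior count of 2. DESeq2 1.42.0 and limma 3.58.1 (voom) were alternatives, in R 4.3.3. Lengths, positions, overlaps and shared 50-base words came from GENCODE M21 (GRCm38), promoters from RefSeq (GRCm38.p6). Replicates differed by more than sampling noise. The chi-square per degree of freedom was 4.51 to 5.28 between KO libraries and 8.66 between WT libraries 1 and 2. It was 23.1 and 20.3 between WT library 3 and WT libraries 1 and 2. On simulated counts with 200 of 16240 genes changed, 24% of those changed by 1.2-fold were called, 78% at 1.5-fold and 98% at 2-fold. The changed genes were drawn only from those with an average log2 CPM above 1, so the rates do not cover Isg15, Oas1a or Mx1. Counts were drawn independently for each gene and library, so shifts shared by many genes, such as acinar content, were not simulated. In the same run 35 unchanged genes were called.

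The members and lists were chosen with earlier results of these data known. All members are named, and of each other list up to 4 genes with the smallest p. Markers and promoter letters named beyond this were chosen after their values were seen.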

Additional observations from a re-analysis of the deposited data

How the results depend on the processing

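The count of the 34 genes called was 0 in the reported fit (5 at an unadjusted p under 0.05), 1 with DESeq2 and 1 without a low-count filter, and 0 with each library left out and in the other settings. DESeq2 gave 8 of the 34 an adjusted p. For the 143 other genes the count was 0 (13 at an unadjusted p under 0.05), 1 with DESeq2 and 2 without the filter (Igtp and Stat3), and 0 to 0 with each library left out. Over all genes, the reported count of 2 became 62 with DESeq2, 272 without the filter, 1 without robust estimation and 0 with the acinar covariate. With each library left out it ranged from 0 to 114: 1 without WT library 1, 114 without WT library 3, 0 without KO library 1 or 2 and 24 without KO library 3. The causes were not tested. A replicate block by column number gave 30 genes over all and 0 of the 34. Deviations of same-numbered libraries correlated at 0.07 to 0.10, and those of differently numbered libraries at -0.13 to 0.04. These values do not settle whether the numbers pair samples. No label supports such pairs, so the numbers were not taken to pair samples. The median of the 34 genes ranged from -0.0070 to 0.07, always within the spread between libraries (SD 0.0841). No scaling moved the median of all genes by more than 0.0067.

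The sign was not stable for several genes, and not only for genes near 0. In the reported fit Gbp2 was at 0.26, Isg15 at 0.20, H2-Q4 at 0.17, Rnf213 at -0.15 and Psme1 at 0.14. The acinar level ran with genotype, so the fit with that covariate cannot cleanly separate genotype from it. With the acinar covariate the log2 fold change turned to 0.0048 (Stat2), 0.021 (Dhx58), -0.0092 (Ifit2), -0.022 (Ifi35), -0.35 (Gbp2), -0.61 (Gbp3), -0.033 (Tap1), -0.11 (Tapbp), 0.0044 (Tbk1), -0.0099 (Myd88), 0.0011 (Rnf213), -0.038 (H2-Q4), -0.0099 (Psme1) and -0.055 (Psmb7). Against WT library 3 alone it turned to 0.025 (Stat2), -0.031 (Ifit1), -0.060 (Mx2), -0.013 (Bst2), 0.048 (Rtp4), -0.084 (Gbp2), -0.096 (Gbp3) and -0.060 (Tapbp). With upper-quartile scaling it turned to 0.0063 (Gbp7), 0.0041 (Psmb9) and 0.0034 (Psmb6), without the filter to 0.0036, 0.0018 and 0.0012 for the same genes, and with limma-voom to -0.014 (Gbp3). With each library left out, ranges crossed 0 for Stat2 (-0.12 to 3.2e-05), Isg15 (-0.021 to 0.42), Ifit1 (-0.029 to 0.061), Ifit2 (-0.084 to 0.12), Ifit3 (-0.17 to 0.095), Ifi35 (-0.083 to 0.14), Mx2 (-0.18 to 0.23), Bst2 (-0.097 to 0.15), Xaf1 (-0.13 to 0.075), Rtp4 (-0.18 to 0.028), Gbp3 (-0.29 to 0.35), Gbp7 (-0.098 to 0.063), Psmb9 (-0.052 to 0.086), Psmb7 (-0.014 to 0.054) and Psmb6 (-0.068 to 0.042). The stricter filter left 31 of the 34 genes.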
